A study of Mus musculus with 18 samples.

Results

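The neutrophil granule genes described here are Elane, Mpo, Prtn3, Ctsg, Ltf, Camp, Ngp, Lcn2, S100a8 and S100a9. They were taken as the rows of the deposited gene table with exactly these gene names, which gave 10 rows of 34745. All 10 were retained by the low-count filter, which left 14241 genes to test. Transcripts were measured by RNA-seq in 18 libraries of mouse bone marrow-derived macrophages (BMDMs), the cells that M-CSF, a macrophage growth factor, grows from marrow and that RANKL turns into osteoclasts. The marrow came from Zmat1 -/- mice and +/+ littermates on a C57BL/6 background, aged 4 to 8 weeks according to the methods of the study, and the knockout is global. Libraries labelled KO and libraries labelled WT were made from BMDMs grown in M-CSF without RANKL (day 0) and after 1 and 3 days of RANKL, with 3 libraries in each of the 6 groups, and M-CSF was given to all of them. The comparisons ask how these transcripts differed between the labels and how they changed while the cells became osteoclasts.

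Total counts were between 13789775 and 17559958 per library. Zmat1 itself did not separate the labels, at 3.49 to 7.61 CPM (counts scaled by the effective library size, the total count times its TMM factor) in the libraries labelled KO and 2.19 to 7.5 CPM in those labelled WT, and the adjusted p in edgeR's quasi-likelihood test was between 0.615 and 0.93 on the 3 days. The directions between labels given here therefore follow the labels, and the genotype behind them was not shown by this gene. The labelled cell type and the RANKL treatment were visible in their markers. The summed level of 10 macrophage genes was 37721 to 67324 CPM at day 0, and the summed level of 10 osteoclast genes rose from 224 to 988 CPM at day 0 to 8293 to 23381 CPM at day 3. In the WT day 1 group 2 libraries carry the number 1 and 1 carries the number 2. In 5 of the 18 libraries the sample title has a double hyphen in place of a single one, and in those libraries the globins Hbb-bs (0 to 0.33 CPM against 8.16 to 12.5 CPM) and Hba-a1 (0 to 0.0769 CPM against 4.35 to 7.43 CPM) did not overlap with the other 13. What the double hyphen marks is not given in the sources used here, so the main results that span both kinds of title are also given without those 5 libraries. Leaving them out keeps KO library 3 alone at KO day 1. No label says whether the libraries of a group came from separate mice, so p-values measure the spread between these libraries.

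Granule proteins are made in waves while a neutrophil matures in the marrow. The proteins of primary, or azurophil, granules are transcribed in the promyelocyte, an early precursor, and those of secondary, or specific, granules are transcribed in the myelocyte and metamyelocyte that follow it, while the cytosolic S100 proteins accumulate late and persist in the mature cell. Macrophages grown in M-CSF transcribe little of most of these genes, although Lcn2, S100a8 and S100a9 can also be induced in macrophages by inflammatory stimuli.

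The primary granule genes are Elane (neutrophil elastase), Prtn3 (proteinase 3) and Ctsg (cathepsin G), all serine proteases, and Mpo (myeloperoxidase), which makes hypochlorous acid. On GRCm38 the table places Elane (ENSMUSG00000020125) at chr10:79886312-79888216 on the plus strand, Prtn3 (ENSMUSG00000057729) at chr10:79874476-79883174 on the plus strand, Mpo (ENSMUSG00000009350) at chr11:87793581-87804413 on the plus strand and Ctsg (ENSMUSG00000040314) at chr14:56099881-56102574 on the minus strand. Prtn3 ends 3137 bases before Elane begins. The later granule genes are Ltf (lactoferrin, which binds iron), Camp (the cathelicidin antimicrobial peptide), Ngp (neutrophilic granule protein, of the cystatin family) and Lcn2 (lipocalin 2, which binds bacterial siderophores). Ltf (ENSMUSG00000032496) lies at chr9:111019271-111042767 on the plus strand, Camp (ENSMUSG00000038357) at chr9:109847379-109849617 on the minus strand, Ngp (ENSMUSG00000032484) at chr9:110419747-110423012 on the plus strand and Lcn2 (ENSMUSG00000026822) at chr2:32384633-32388252 on the minus strand. S100a8 and S100a9 encode the subunits of calprotectin, which binds calcium, zinc and manganese. S100a8 (ENSMUSG00000056054) lies at chr3:90668978-90670035 on the plus strand and S100a9 (ENSMUSG00000056071) at chr3:90692632-90695721 on the minus strand, with 22596 bases between them. Prtn3 overlaps its neighbour Lppr3 by 159 bases, and Mpo overlaps Gm11505, which had 0 counts in every library.

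The promoters of 4 members are printed, chosen by their matches to the C/EBP motif, which the later genes Ngp and Ltf hold and the primary genes Elane and Prtn3 do not. The PU.1 motif of Elane and Prtn3 is also held by Ltf. Each line is the 250 bases before the transcription start in RefSeq's annotation of GRCm38.p6, read 5′ to 3′ on the gene's strand, and capitals mark motif matches. They are Elane at chr10:79886062-79886311, Prtn3 at chr10:79879417-79879666, Ngp at chr9:110419558-110419807 and Ltf at chr9:111019042-111019291, all on the plus strand, and the RefSeq starts of Prtn3, Ngp and Ltf lie inside their loci in the deposited table.
Elane: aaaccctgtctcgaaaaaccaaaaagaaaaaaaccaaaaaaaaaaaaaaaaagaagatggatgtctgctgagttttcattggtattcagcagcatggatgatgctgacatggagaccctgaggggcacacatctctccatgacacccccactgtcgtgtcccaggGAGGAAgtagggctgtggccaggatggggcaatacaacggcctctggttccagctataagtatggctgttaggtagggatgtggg
Prtn3: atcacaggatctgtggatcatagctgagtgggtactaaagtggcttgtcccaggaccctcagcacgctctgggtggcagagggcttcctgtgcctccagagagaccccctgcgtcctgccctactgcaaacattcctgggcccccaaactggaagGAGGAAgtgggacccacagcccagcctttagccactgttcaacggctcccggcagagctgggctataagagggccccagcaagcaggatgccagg
Ngp: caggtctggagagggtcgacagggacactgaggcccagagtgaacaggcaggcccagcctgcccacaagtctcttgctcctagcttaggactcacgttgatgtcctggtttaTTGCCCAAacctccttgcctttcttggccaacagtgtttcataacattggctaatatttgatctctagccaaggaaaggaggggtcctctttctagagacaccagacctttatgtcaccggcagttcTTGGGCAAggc
Ltf: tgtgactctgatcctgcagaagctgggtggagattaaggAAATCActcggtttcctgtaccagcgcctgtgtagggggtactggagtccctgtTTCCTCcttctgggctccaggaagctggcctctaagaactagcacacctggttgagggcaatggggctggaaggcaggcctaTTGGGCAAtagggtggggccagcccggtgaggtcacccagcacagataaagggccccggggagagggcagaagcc
The letters searched on both strands, in these bases and the first 50 of the transcript, were TTGCNNAA for C/EBP factors, GAGGAA for PU.1, TGTGGT for RUNX factors, AACNGTT for MYB and AAATCA for GFI1, and none of these motifs contains another.

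GAGGAA was found in the promoters of all 4 primary granule genes, and also in those of Ltf, Lcn2 and S100a8, against 28.3% of the 32851 RefSeq promoters of the same length. It began 85 bases before the start of Elane and 95 before that of Prtn3. TTGCNNAA was found in 4 later genes, Ltf, Ngp, Lcn2 and S100a9, and in 0 of the 4 primary ones, against 10.8% of all promoters. Ngp held it at 138 and at 11 bases before its start, and Ltf at 75. TGTGGT was found in Ctsg, Ltf and S100a9 (16.8% of all promoters), AAATCA in Ltf alone (14.0%), and AACNGTT in 0 of the 10 (4.45%). These are matches of letters only, and no binding was measured in these libraries.

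On a scale of CPM per kilobase of the principal transcript, the 6 later granule and cytosol genes stood above the 4 primary granule genes in every group. At WT day 0 the mean level was 1046 CPM per kb for S100a9, 617 for Ngp, 412 for S100a8, 195 for Camp, 151 for Lcn2 and 141 for Ltf. In the same libraries it was 18.7 CPM per kb for Prtn3, 16.7 for Elane, 12.5 for Mpo and 5.54 for Ctsg. S100a9 was highest and Ctsg lowest in all 6 groups. Ngp came after S100a9 on days 0 and 1 and S100a8 did so on day 3 under both labels, and Elane and Prtn3 exchanged places between the labels, by less than their spread between libraries.

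Elane, given as CPM per library, was at 23.5, 1.55 and 24.3 at WT day 0, at 6.42, 1.5 and 1.31 at WT day 1 and at 0.31, 0.176 and 1.01 at WT day 3. In the libraries labelled KO it was at 29.4, 29.8 and 140 at day 0, at 14.5, 9.09 and 34.9 at day 1 and at 1.37, 0.489 and 11.7 at day 3. WT day 0 library 2 stood far below the other libraries of its group, and KO library 3 was the highest of its group on each day. Ctsg was at 5.77, 1.24 and 9.65 CPM at WT day 0, at 1.5, 0.601 and 0.896 at WT day 1 and at 0, 0 and 0.112 at WT day 3, where the last value is 2 counts. Under the KO label Ctsg was at 7.35, 4.31 and 45.5 CPM at day 0, at 3.27, 2.43 and 6.82 at day 1 and at 0.238, 0.367 and 1.19 at day 3. Ctsg was the rarest of the 10 and was within the floor of 3 counts in every WT day 3 library, so folds against that group are given as bounds. Mpo ran from 0.235 CPM in a WT day 3 library to 247 CPM in a KO day 0 library, and Prtn3 from 0.155 to 122 CPM between the same groups.

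Ngp was at 1045, 218 and 999 CPM at WT day 0, at 855, 102 and 119 at WT day 1 and at 16.2, 8.12 and 12.8 at WT day 3. Under the KO label it was at 1984, 1436 and 3701 CPM at day 0, at 565, 823 and 1052 at day 1 and at 77.6, 26.4 and 313 at day 3. The labels did not overlap on days 0 and 3, and on day 1 the double-hyphen WT library, at 855 CPM, lay among the KO libraries. Camp was at 146, 51.2 and 245 CPM at WT day 0, at 106, 22.0 and 27.1 at WT day 1 and at 3.51, 2.12 and 3.48 at WT day 3. Camp under the KO label was at 513, 215 and 1110 CPM at day 0, at 79.0, 101 and 275 at day 1 and at 22.3, 6.91 and 92.6 at day 3. Camp differed from Ngp at day 0, where 1 WT library lay above the lowest KO library. S100a9 was at 624, 181 and 824 CPM at WT day 0, at 552, 109 and 176 at WT day 1 and at 26.0, 13.4 and 16.4 at WT day 3. Under the KO label S100a9 was at 1515, 1031 and 3508 CPM at day 0, at 440, 559 and 873 at day 1 and at 129, 30.8 and 425 at day 3. S100a9 was the most abundant member per length, and like Ngp its labels did not overlap on days 0 and 3. Ltf lay between 6.53 and 1643 CPM over the 18 libraries, Lcn2 between 2.18 and 896 and S100a8 between 5.06 and 1331, each lowest in a WT day 3 library and highest in a KO day 0 library.

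**Figure D1:**
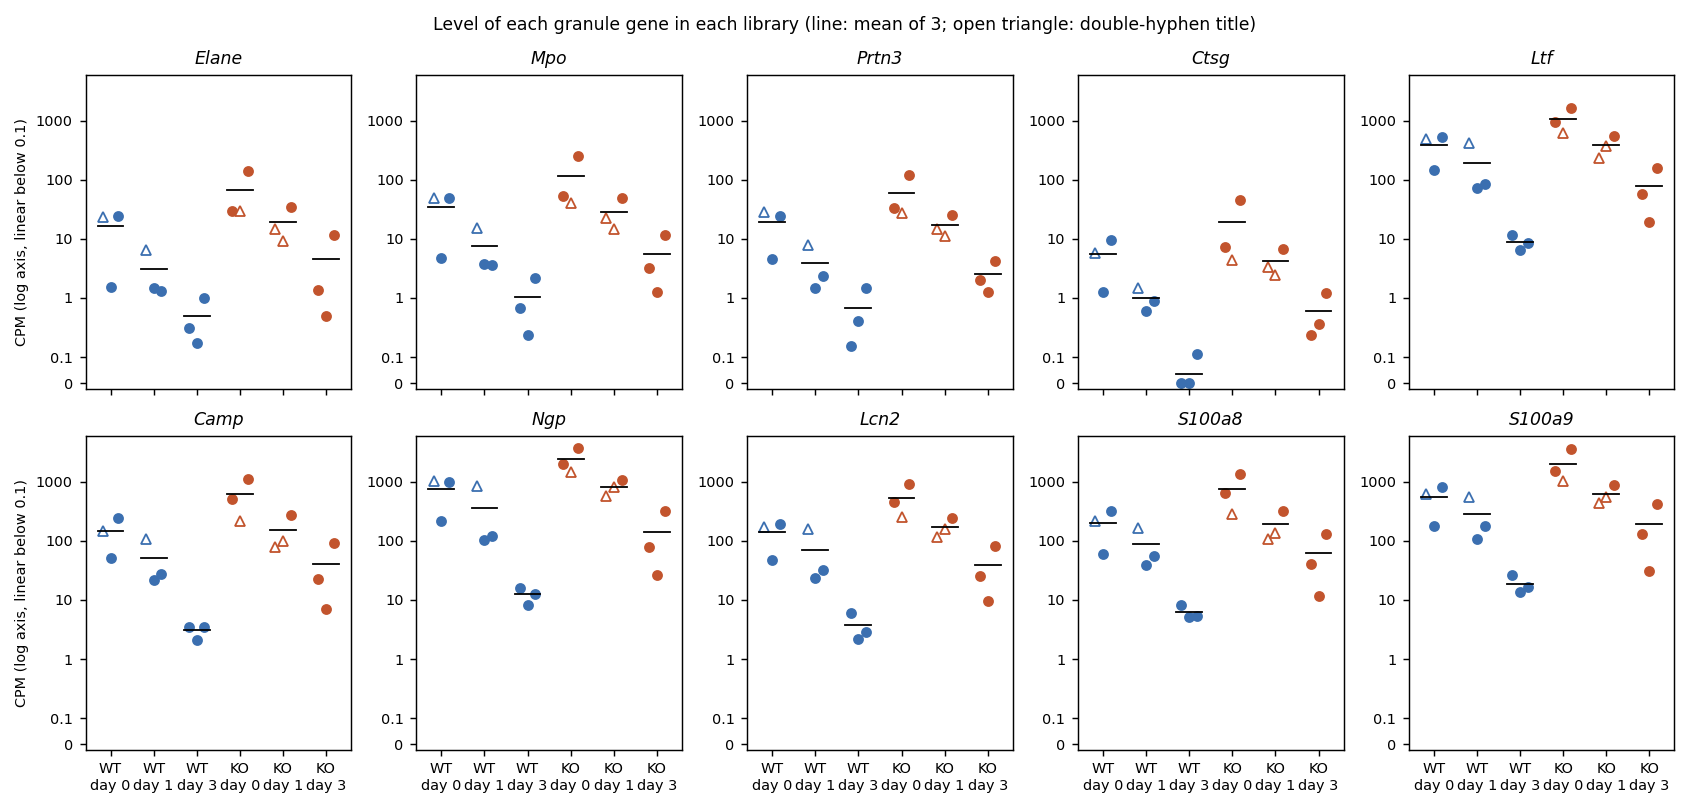
CPM of each of the 10 genes in each of the 18 libraries on a log axis, by label and day, with 1 point for each library. Every gene was lowest at WT day 3, where Ngp was at 8.12 to 16.2 CPM, and highest at KO day 0, where it was at 1436 to 3701 CPM.

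Single libraries stood apart for many members at once. KO library 3 was the highest of its group for 10 of 10 genes on each day, by a median of 2.96 times the mean of the other libraries at day 0, 2.15 times at day 1 and 5.13 times at day 3. Under the WT label, the double-hyphen library of day 1 was the highest for 10 of 10 genes, by 2.0 to 7.74 times, and library 2 of day 0 was the lowest for 10 of 10. Over the 18 libraries, which share their days and labels, Pearson's r of log2 CPM was between 0.984 and 0.998 for the 15 pairs of later granule and cytosol genes and between 0.954 and 0.988 for the 6 pairs of primary granule genes. It was between 0.934 and 0.968 for the 24 pairs of a primary and a later gene. The 10 genes are therefore not 10 separate observations of a group.

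From day 0 to day 3 of RANKL every member fell under both labels. Each of the 10 was called lower (adjusted p under 0.05 in edgeR's quasi-likelihood test, over all genes tested) in the libraries labelled WT, where 26.5% of all genes tested were called lower, and in the libraries labelled KO, where 22.3% were. The libraries of day 3 lay wholly below those of day 0 for 10 of 10 members under both labels, as for 31.0% of all genes under WT and 29.4% under KO. The median log2 fold change of the members was -5.06 under WT with Ctsg at its bound and -3.89 under KO, against -0.03 and -0.01 over all genes tested. In a bulk library, fewer cells of a type and less RNA per cell cannot be told apart.

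Among the primary granule genes under the WT label, Elane fell by 5.02 on the log2 scale (SE 1.36, edgeR adjusted p = 0.0074), Mpo by 5.05 (SE 1.21, edgeR adjusted p = 0.00343) and Prtn3 by 4.82 (SE 0.979, edgeR adjusted p = 0.00113). Ctsg was at least 33.4-fold lower at day 3, taking 3 counts per library as the level there. Among the later granule genes Ngp had the largest change of the 9 with a fitted value, and fell by 5.93 (SE 1.09, edgeR adjusted p = 0.000539). Ltf fell by 5.43, Camp by 5.6 and Lcn2 by 5.22. The cytosolic S100a8 fell by 5.02 and S100a9 by 4.87.

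Under the KO label the changes were smaller in size for each of the 9 genes with a fitted value under both labels. The primary granule genes Elane, Mpo, Prtn3 and Ctsg fell by 3.87, 4.37, 4.59 and 4.96 on the log2 scale. The later granule genes Ltf, Camp, Ngp and Lcn2 fell by 3.77, 3.92, 4.09 and 3.77, and S100a8 and S100a9 fell by 3.63 and 3.37. The difference between the labels in these changes was itself tested, and it was called for 0 of 10 members, with log2 differences of 0.23 to 1.83 for those 9 and adjusted p in edgeR between 0.926 and 0.997. Without the double-hyphen libraries these differences ran from -0.56 to 1.48, so their direction was not the same for all members. Over all genes 0 were called in that test in edgeR and 4 in DESeq2, with 769 at an unadjusted p under 0.05. Scaling by total counts shifted the median of all genes from day 0 to day 3 by 0.36 under WT and 0.29 under KO on the log2 scale, and the 10 members stayed called lower under both labels. They also stayed called lower under both without the 5 double-hyphen libraries.

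**Figure D2:**
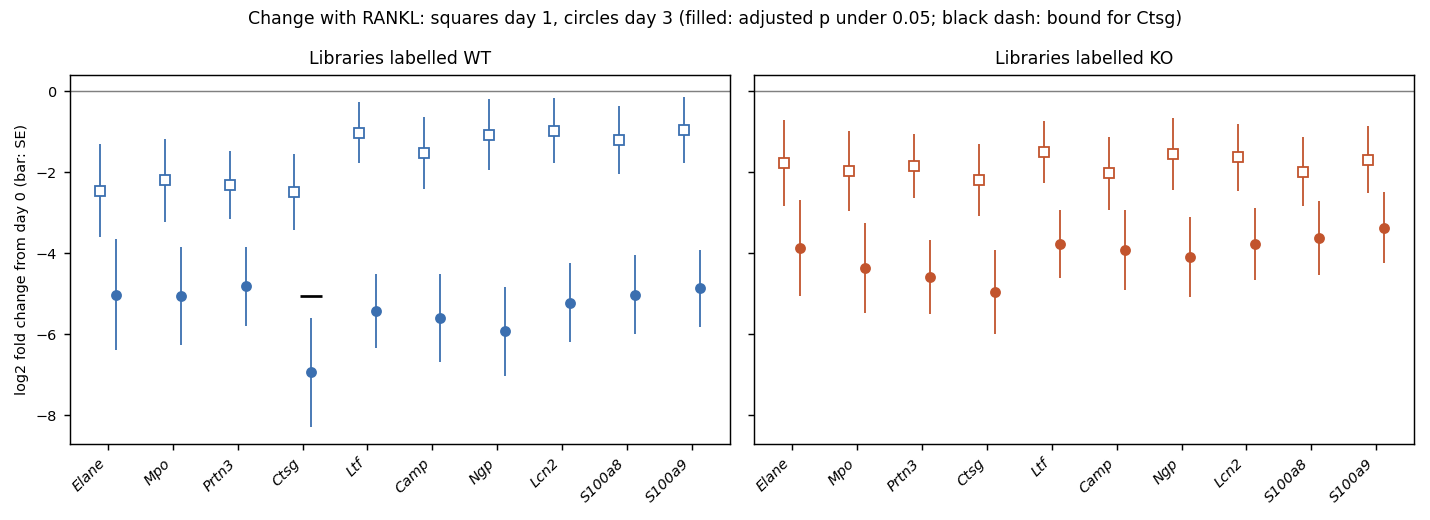
Log2 fold change from day 0 of each member with its standard error, with squares for day 1 and circles for day 3, in the libraries labelled WT and KO, and filled points for an adjusted p under 0.05. Every circle is filled and lies at -3.37 or below, no square is filled, and the black dash is the bound of Ctsg under WT, whose fitted value depends on the prior count.

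After the first day of RANKL the members were lower but did not pass the test. From day 0 to day 1 the 10 log2 fold changes were negative under both labels, as were 49.5% of all genes under WT and 49.7% under KO, but 0 of 10 were called in edgeR, where 0.913% of all genes were called lower under WT and 0% under KO. Under WT the primary granule genes differed by -2.49 to -2.2 and the 6 others by -1.52 to -0.96 on the log2 scale, and the libraries of the 2 days overlapped for every member, while 8.04% of all genes did not overlap. The size of these changes leaned on the double-hyphen library of WT day 1. Without it Ltf differed by -2.3, Camp by -2.58, Ngp by -2.76, Lcn2 by -2.31, S100a8 by -2.09 and S100a9 by -1.92. Elane, Mpo and Prtn3 then differed by -3.53, -3.21 and -3.31, so the 6 others still changed less than these primary granule genes. Ctsg did not go below -2.96 in any alternative. Under KO the members differed by -2.19 to -1.49, and the libraries did not overlap for 5 of them (Prtn3, Ltf, Ngp, Lcn2 and S100a9), as for 10.6% of all genes. With the unadjusted threshold of the study's methods, p under 0.05 with a fold below 0.66, Mpo, Prtn3 and Ctsg passed under WT (4.60% of all genes) and Prtn3, Ctsg, Camp and S100a8 under KO (2.97%). At an unadjusted p under 0.05 alone there were 2914 genes under WT and 1456 under KO in either direction. Without the double-hyphen libraries the members differed by -3.17 to -1.8 under WT, with 7 past the unadjusted threshold, and by -1.93 to -1.24 under KO, with 0 past it, and 0 of 10 were called under either label. DESeq2 called 1 member under WT, where it called 8.57% of all genes in either direction, and 0 under KO, where it called 1.19%. Whether the labels differed in this change was tested too, and 0 of 10 members and 0 genes in all were called in edgeR, with 527 genes at an unadjusted p under 0.05.

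From day 1 to day 3 under WT, 7 members were called lower, Ctsg and the 6 later granule and cytosol genes, with 19.3% of all genes called lower. Ngp fell by 4.86, Ltf by 4.42, Lcn2 by 4.25, Camp by 4.08, S100a9 by 3.9 and S100a8 by 3.82 on the log2 scale, and Ctsg was at least 6.0-fold lower. The primary granule genes Elane, Mpo and Prtn3 differed by -2.58, -2.84 and -2.5 and did not pass (edgeR adjusted p between 0.0596 and 0.162), although the libraries of the days did not overlap for any of the 10 (27.1% of all genes). Without the double-hyphen libraries 5 members were called under WT, in a fit that called 22.0% of all genes in either direction, against 32.0% with all libraries. Under KO only Prtn3, Ctsg and Ltf were called, with falls of 2.75, 2.77 and 2.28, against 15.5% of all genes called lower, and the libraries did not overlap for 7 members (25.1% of all genes). The numbers of the KO libraries were taken to pair the days, although libraries 1 and 2 also deviated together across numbers. KO day 1 library 2 had an r of 0.187 with day 3 library 1 and 0.156 with day 3 library 2. With the number as a block 10 of 10 members were called lower under KO, in a fit that called 28.2% of all genes in either direction. The count without the block rested on single libraries. It was 10 when library 3 of KO day 3 was left out, 1 when library 2 of KO day 1 was, and 0 for each of the 4 remaining libraries. Leaving out the double-hyphen libraries keeps KO library 3 alone at KO day 1, and the members then differed by -3.45 to -2.14 from day 1 to day 3. With all libraries they differed by -2.77 to -1.63. These comparisons share their day 0 or day 3 libraries, so they are not independent of each other.

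Between the labels every member had a higher fitted level under KO on each of the 3 days, where 53.8%, 46.6% and 52.2% of all genes did on days 0, 1 and 3, and 0 of 10 members were called in edgeR on any day. Over all genes 0.119%, 0.112% and 0.140% were called, and 1081, 1125 and 1521 genes had an unadjusted p under 0.05. The smallest adjusted p of a member was 0.22, for S100a9 at day 3. DESeq2 called 6 members at day 3, where it called 1.65% of all genes, and 0 on days 0 and 1, where it called 0.449% and 0.534%.

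At day 0 the log2 fold change, KO over WT, was between 1.46 for Ltf and 2.05 for Camp. Camp, Lcn2, S100a8 and S100a9 passed the unadjusted threshold of p under 0.05 with a fold above 1.5, as 2.89% of all genes did, and the labels did not overlap for Elane, Ltf, Ngp, Lcn2 and S100a9 (4.90% of all genes). At day 1 it was between 0.99 for Ltf and 2.69 for Elane. Only Elane, Prtn3 and Ctsg passed the unadjusted threshold at day 1 (3.34% of all genes), and the same 3 primary granule genes were those whose labels did not overlap (6.83%). At day 3 it was between 1.89 for Prtn3 and 3.74 for Camp among 9 members, and the mean of Ctsg was at least 3.59-fold higher under KO. That bound leaned on KO library 3, since Ctsg had 4, 6 and 21 counts in KO day 3 libraries 1, 2 and 3. At that time 8 members, all but Mpo and Prtn3, passed the unadjusted threshold (4.82% of all genes), and the labels did not overlap for 7, all but Elane, Mpo and Prtn3 (15.9%). The values of the primary granule genes at day 3 leaned on WT day 3 library 3, without which the log2 fold change was 4.15 for Elane, 3.53 for Mpo and 3.14 for Prtn3.

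These differences leaned on the KO libraries numbered 3, which had the highest level of all 10 members. Without those 3 libraries the log2 fold changes were 0.07 to 1.36 at day 0, 0.48 to 1.96 at day 1 and 0.9 to 2.79 at day 3, and 0, 0 and 7 members passed the unadjusted threshold. Of all 14411 genes in that fit 256, 418 and 486 passed it with KO higher. The KO libraries then left at day 1 all have a double hyphen. Without the 5 double-hyphen libraries the log2 fold changes were 1.94 to 2.71 at day 0 and 2.62 to 4.63 at day 1. At day 1 KO library 3, the highest for all 10 members, was then the only KO library left, so those values rest on it. At days 0 and 3, 0 of 10 members were called, as were 0.0933% and 0.173% of all genes. All 6 day 3 libraries have a single hyphen, so that difference does not span the kinds of title.

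The mean of the label differences over the 3 days, a comparison added after the single days had been seen, was between 1.86 and 2.62 on the log2 scale for the 9 members other than Ctsg. Camp (2.45), S100a9 (2.15), Lcn2 (2.21) and S100a8 (2.11) were called higher under KO, with adjusted p in edgeR between 0.0424 and 0.0484, as were 1.14% of all genes. The 6 others had an adjusted p between 0.0529 and 0.0978, and all 10 passed the unadjusted threshold (7.79% of all genes). These calls did not hold without the KO libraries numbered 3, where 0 of 10 members and 0.611% of all genes were called. There 8 members passed the unadjusted threshold, as did 580 of 14411 genes with KO higher. Without the double-hyphen libraries, which keeps KO library 3 alone at KO day 1, the member differences ran from 2.61 to 3.49. Leaving out any 1 library gave between 0 and 10 calls, and gave 0 for every library except those numbered 2 at KO day 0 and at KO day 3 (6 calls each), number 3 at WT day 0 (9 calls) and the double-hyphen one at WT day 1 (10 calls).

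**Figure D3:**
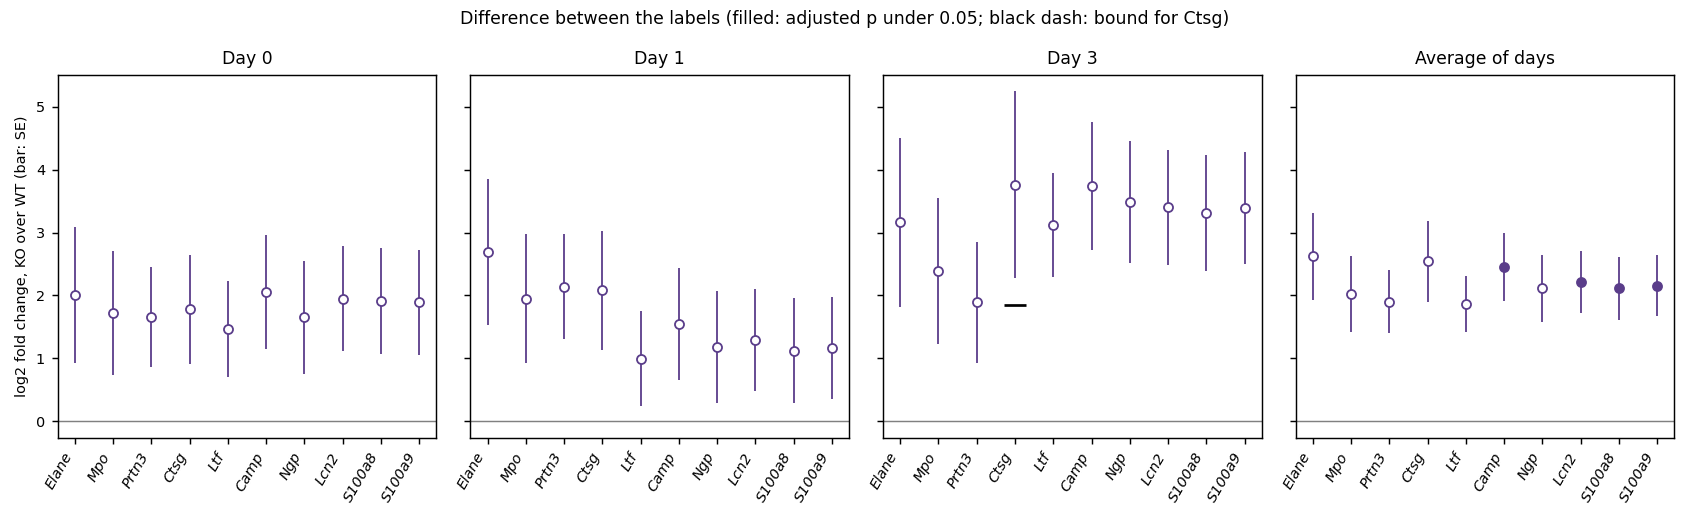
Log2 fold change of each member, KO over WT, with its standard error, on days 0, 1 and 3 and as the average of days, with filled points for an adjusted p under 0.05. All points lie above 0 and only Camp, Lcn2, S100a8 and S100a9 in the average are filled. The fitted value of Ctsg depends on the prior count where WT day 3 enters, and the black dash is its bound of 1.84.

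The balance of primary against later granule genes moved far less than their level. The 10 members together took 0.0665% to 0.306% of all counts at WT day 0 and 0.00438% to 0.00852% at WT day 3, and 0.338% to 1.23% at KO day 0 and 0.0126% to 0.133% at KO day 3. At day 1 the shares were 0.0387% to 0.186% under WT and 0.142% to 0.358% under KO. Within the members' counts, the 4 primary granule genes made up 2.95% ± 1.12 (SD, n = 3) at WT day 0 and 2.96% ± 1.23 (SD, n = 3) at KO day 0. At day 1 they made up 1.65% ± 0.3 under WT and 2.85% ± 0.979 under KO, and at day 3 4.17% ± 4.03 under WT and 2.47% ± 0.633 under KO. The ranges of these count shares overlapped between the labels on each day and between the days under each label. Per kilobase of the principal transcript the labels did not overlap at day 1, with shares of 0.818% to 1.08% under WT and 1.13% to 2.14% under KO.

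The widest spread was at WT day 3, where the primary share was 1.56%, 2.15% and 8.81% in libraries 1, 2 and 3. In that group the 4 primary granule genes were highest in library 3 and the 6 others in library 1. The Wilson 95% interval of the highest share was 7.18% to 10.8%, and it covers counting error only. The share depends on scale, with group means of 0.897% to 2.15% on the deposited FPKM, 0.928% to 2.35% per kilobase of the principal transcript and 2.74% to 7.27% of the counts without S100a8 and S100a9. On the log2 scale the mean of the primary genes lay 2.78 to 5.57 below that of the later genes in the single libraries.

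**Figure D4:**
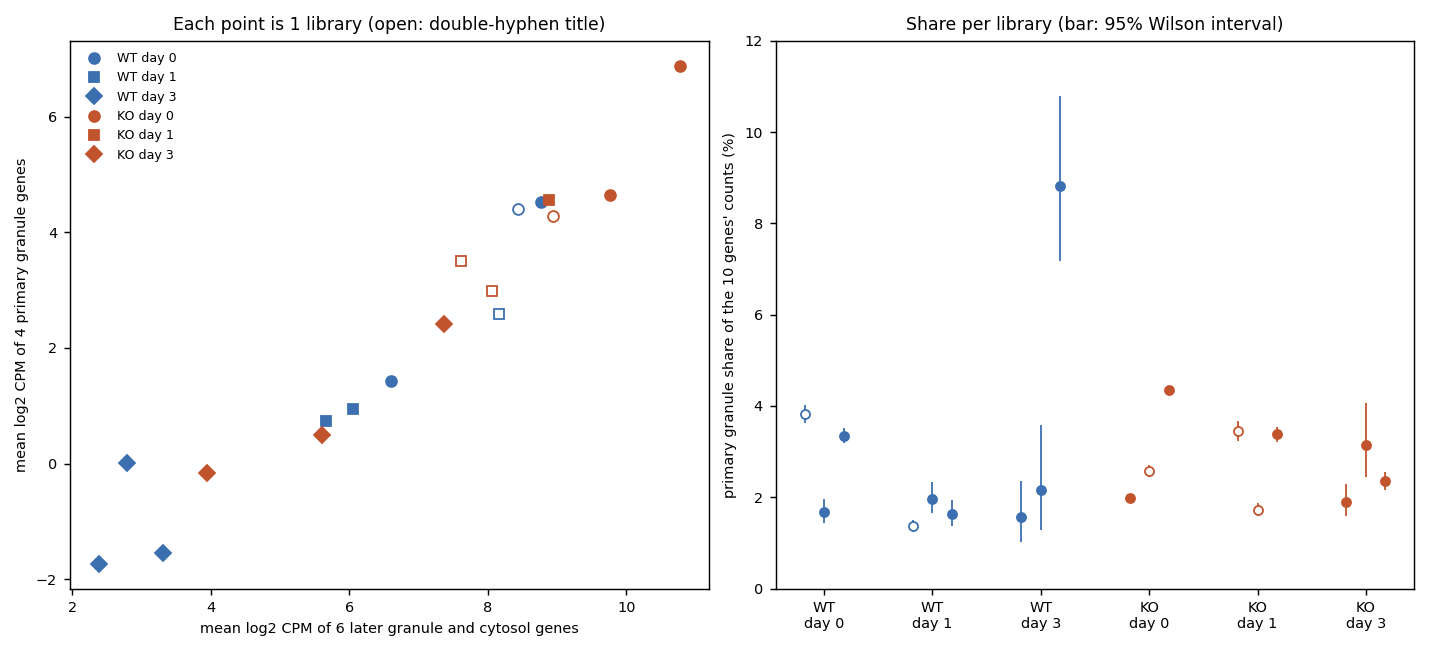
Mean log2 CPM of the 4 primary granule genes against that of the 6 later granule and cytosol genes with 1 point for each library, and the primary share of the counts of the 10 genes in percent with its Wilson 95% interval. The points of the first panel rise together from the day 3 to the day 0 libraries, and 1 WT day 3 library stands at a share of 8.81% while the other 17 are at 4.34% or less.

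The ratio of Camp to Ngp, noticed after the values had been seen, followed the kind of sample title rather than label or day. It was 0.122 to 0.15 in the 5 double-hyphen libraries and 0.215 to 0.3 in the 13 others. Of the 45 pairs of members, 1 other ratio, Ngp to S100a8, separated them likewise (4.83 to 6.13 against 1.6 to 3.72). Within days 0 and 1, which hold all 5 double-hyphen libraries and 7 others, 4 pairs did so, also Camp to Lcn2 (0.639 to 0.849 against 0.856 to 1.26) and Prtn3 to Ctsg, whose ranges met at 4.49. Taken singly, 0 of 10 members were called for the kind of title (edgeR adjusted p between 0.49 and 0.972). No share of all genes is set beside this count, and no share of other gene pairs beside the ratios. Whether the split by title is particular to these members is therefore not shown, and the cause of the separated ratios was not tested.

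**Figure D5:**
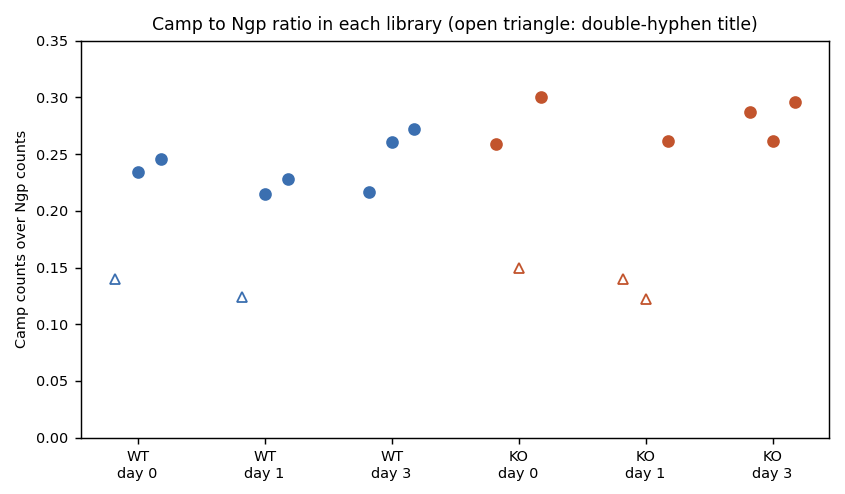
Camp counts over Ngp counts in each of the 18 libraries on a linear axis from 0, by label and day, with open triangles for the 5 libraries with a double hyphen in the title and filled circles for the other 13. The triangles lie between 0.122 and 0.15 and the circles between 0.215 and 0.3.

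The genes whose log2 CPM over the 18 libraries was most like the mean of the primary granule genes were Fcnb, Cebpe, BC064078, S1pr4, Ly6c2, Slco4c1, Chil3 and Prom1, with Pearson's r of 0.97 to 0.978. Fcnb encodes ficolin B of neutrophil precursors, and Cebpe a transcription factor needed for secondary granules. Those most like the mean of the later granule and cytosol genes were Pglyrp1, Cd177, Chil3, I830127L07Rik, Hdc, Ltb4r1, Itgb2l and Nfe2, with r of 0.987 to 0.997. Pglyrp1 encodes a peptidoglycan recognition protein stored in granules, and Cd177 a surface glycoprotein of neutrophils. Only Chil3 was named in both groups. By Spearman's rho, 5 of the first 8 and 4 of the second 8 were again among the top 8. These values include the differences between days and labels, which the libraries share.

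Other genes of the neutrophil lineage were tested as lists, and were counted as fallen or risen where called in edgeR. Of all genes, 26.5% were called lower under WT from day 0 to day 3 and 22.3% under KO. Called higher were 23.7% under WT and 20.2% under KO. Of 12 genes of neutrophil progenitors and promyelocytes, 8 fell from day 0 to day 3 under both labels and 1, Sox4, rose. Under WT Cebpe fell by 4.33, Fcnb by 5.29, Gfi1, a repressor of monocyte genes, by 4.25, and Ctsc, which activates the granule proteases, by 2.42. Of 22 listed genes of later neutrophils 18 were tested and 16 fell under both labels, among them Mmp8 (neutrophil collagenase). Under WT Mmp8 fell by 4.34, Hdc fell by 5.49 and Cd177 fell by 5.38. Mmp9, a gelatinase that osteoclasts also make, rose under both labels, by 6.04 under WT and 3.84 under KO, and Anxa1, named because it was the other gene of the list to rise, rose under WT. The median of the list was -4.29 under WT and -3.23 under KO. Ly6g, which marks neutrophils, was at 1.93 to 9.44 CPM at WT day 0, 0 to 0.31 CPM at WT day 3, 7.84 to 33.7 CPM at KO day 0 and 0.306 to 4.98 CPM at KO day 3.

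Of 9 transcription factors that act on granule genes, 7 fell under WT and 6 under KO from day 0 to day 3 and 0 rose. The shares of all genes called lower were 26.5% under WT and 22.3% under KO. Cebpe fell most of the 4 named, and Irf8, which favours monocytes over granulocytes, fell by 2.56 under WT and 2.28 under KO. Cebpb and Cebpd, which macrophages also express, fell by 1.42 and 1.32 under WT and by 1.6 and 1.08 under KO. Of 9 genes for receptors and inhibitors of granule proteins, 5 fell under WT and 4 under KO, beside the same shares of all genes. Those that fell included Fpr2, a receptor of the cathelicidin peptide (3.84 under WT and 3.36 under KO on the log2 scale), Serpinb1a, an inhibitor of neutrophil serine proteases (2.33 and 2.22), and Ager, a receptor of S100 proteins (1.24 and 1.26).

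Between the labels 0 genes of these 4 lists were called on any single day in edgeR. In the average of days, added after the single days had been seen, 7 of 18 later neutrophil genes were called higher under KO, and 0 of the other 3 lists. Of all genes 1.14% were called higher there. The lists were not refitted with libraries left out, and in that average 0 of 10 members were called without the KO libraries numbered 3. The median log2 fold change, KO over WT, was 1.46 at day 0 and 1.72 at day 3 for the progenitor list and 1.61 and 2.92 for the later neutrophil list, with 0.3 and 0.36 for the transcription factors and 0.15 and 0.44 for the receptors and inhibitors. At an unadjusted p under 0.05 in edgeR, which 7.59% of all genes had at day 0, 7.90% at day 1 and 10.7% at day 3, there were 13 of 18 genes of the later neutrophil list at day 0, 1 at day 1 and 15 at day 3. At days 0 and 3 there were 2 and 6 of 12 progenitor genes, 1 and 2 of 9 transcription factors, and 2 and 4 of 9 receptors and inhibitors. At day 3 the lowest p in the later neutrophil list was that of Cd177 (log2 fold change 3.52, edgeR adjusted p = 0.207).

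Markers of other cell types changed beside the members. Of all genes, 26.5% were called lower under WT from day 0 to day 3 and 22.3% under KO. Called higher were 23.7% under WT and 20.2% under KO. From day 0 to day 3, 9 of 10 macrophage genes fell under both labels, and so did 5 of 9 monocyte rows under WT and 4 under KO, where Ly6c2 fell by 5.3 under WT and by 3.5 under KO, while Vcan rose under both labels (log2 fold change 2.96 under KO). Of 9 eosinophil, basophil and mast cell genes, 6 were tested and 3 (Hdc, Prg2 and Epx) fell under both labels, and their summed level went from 7.82 to 49.8 CPM at WT day 0 to 2.84 to 2.94 CPM at WT day 3, and from 41.7 to 329 CPM to 2.51 to 12.9 CPM under KO. Hdc is also in the later neutrophil list. Epx, a peroxidase of eosinophils, was at 0 in every WT day 3 library. Of 7 B cell genes, 5 were tested and 4 fell under WT and 2 under KO. Of 7 tested stromal or osteoblast genes 5 rose under WT and 7 under KO, with medians of 2.81 and 3.14. Of 5 tested erythroid genes only Epor changed, and fell by 3.48 under WT and by 2.7 under KO. Erythroid Alas2 and Car1 were at 0 in every library, and 0 of 6 T or NK cell genes were tested. The part of these cells in the change of the members was not tested.

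At day 3, beside the higher levels of the members under KO, the B cell list summed to 4.1 to 8.93 CPM under KO and 0.882 to 1.39 CPM under WT, and a list of 8 stromal or osteoblast genes to 19519 to 27450 CPM and 10797 to 13960 CPM, with neither list overlapping between the labels. Of single genes 15.9% did not overlap with KO higher, and no such share was computed for summed lists. The osteoclast list overlapped (8293 to 17734 CPM under KO and 16039 to 23381 CPM under WT), with 0 of 10 genes positive and a median log2 fold change of -0.56. The macrophage list overlapped (9860 to 20029 CPM under KO and 6925 to 15024 CPM under WT), as did the eosinophil, basophil and mast cell list (2.51 to 12.9 CPM and 2.84 to 2.94 CPM), the monocyte list did not (573 to 1126 CPM and 431 to 570 CPM), and 0 genes of these lists were called between the labels at day 3 in edgeR, with unadjusted p under 0.05 for 0 of 10 macrophage genes, 4 of 9 monocyte rows, and 1 gene each of the osteoclast, B cell, stromal and eosinophil lists. The gene of the eosinophil list was Hdc, which is also in the later neutrophil list. Of 9 tested inflammatory genes that macrophages can express 0 were called between the labels on any day in edgeR. An unadjusted p under 0.05 was found for 0 at day 0, 5 at day 1 and 0 at day 3, with median log2 fold changes of 0.1, 1.54 and 0.32. Their part in the difference between the labels was not tested. Within 1 Mb of the members, Tpm3, near S100a8 and S100a9, was the only gene called between the labels, as 1 of 33 tested there on each day.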

How the data were processed

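RNA was extracted and made into libraries with a SMARTer mRNA kit per the labels. The authors deposited 1 table for the series with a count column and an FPKM column (scaled for length and depth) for each of the 18 libraries, and 0 value columns belonged to no sample. The submitters' processing notes name StringTie and the builds GRCm38.p4 and mm10, and the aligner and the counting step are not given in the sources used here. The lengths behind the deposited FPKM exceed the principal transcript for 6 members, so levels per length use the principal transcript of GENCODE M21.

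Counts were fitted with edgeR 4.0.16 in R 4.3.3 (TMM scaling, filterByExpr, quasi-likelihood test, 6 groups, no covariate), and Benjamini-Hochberg adjustment covered 14241 genes. CPM used effective library sizes (total counts times TMM factors), shares of a library used its total count, and depths are given in the report. Calls required an adjusted p under 0.05. Ctsg at WT day 3 was within 3 counts in every library and is given as a bound. Shares have Wilson 95% intervals, and intervals and floors cover counting error only. Scripts were tested on simulated data.

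Named were the 10 members, up to 4 genes of each other list with the lowest unadjusted p, and the 8 genes most correlated with each mean of members (log2 CPM, prior count 2). Members, lists and tests were chosen with earlier results of these data known. Same-numbered libraries deviated together in all 3 pairs of KO days 0 and 3 (r of 0.13 to 0.398) and KO days 1 and 3 (0.156 to 0.34), and in not all pairs elsewhere, so the numbers were taken to pair those groups. Libraries 1 and 2 also did so across numbers, so the pairing was not shown for them. KO day 0 library 2 had an r of 0.155 with day 3 library 1 and 0.135 with day 3 library 2. Alternatives were other scalings and filters, DESeq2 1.42.0, a replicate block, the title style as a covariate, the compared groups alone and leaving out libraries.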

Additional observations from a re-analysis of the deposited data

How the results depend on the processing

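All 100 differences (10 members in 10 comparisons) kept their direction in every alternative, 67 also kept their call, and 172 of 1748 single values changed their call. The tests of whether the labels differed in the change with RANKL are not among these, and directions changed there. Without the double-hyphen libraries the lowest member difference went from 0.23 to -0.56 for day 3 and from -0.79 to 0.29 for day 1. That fit keeps KO library 3 alone at KO day 1, so no calls that use that group are listed below for it. All 10 members remained called lower from day 0 to day 3 under WT in every alternative, and 9 to 10 under KO. The count from day 1 to day 3 under KO, 3 in the fit reported, was 1 with total counts, 6 with DESeq2, 10 with the replicate block, 1 with title style as a covariate, 6 without the KO libraries numbered 3, 0 without the double-hyphen libraries and 0 to 10 leaving out 1 library. That from day 0 to day 1 under WT was 1 with DESeq2 and 0 to 1 leaving out 1 library. Between the labels DESeq2 called 6 at day 3. In the average of days, with 4 calls, there were 2 with a stricter filter, 10 with DESeq2, 10 with the replicate block, 9 with title style, 0 without the KO libraries numbered 3, 7 without the double-hyphen libraries and 0 to 10 leaving out 1 library. The cause of these shifts was not tested. The replicate block changed no other count of adjusted calls by over 1.5 times, while it took the members past the unadjusted threshold between labels at day 0 from 4 to 10. All genes past it with KO higher went from 411 to 543. The numbers do not pair the labels, where 2, 1 and 0 of 3 pairs had a correlation over 0.1 on days 0, 1 and 3. With 3 libraries a group and this spread, fitted differences of up to 3.74 between the labels at a single day did not pass, and at WT day 3 the primary granule genes rest on few counts.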
